A study of Saccharomyces cerevisiae BY4741 with 5 samples.

Results

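The transcripts that encode the subunits of the yeast proteasome were followed in a CRAC data set of the RNA-binding protein Ssd1. CRAC (cross-linking and analysis of cDNA) uses ultraviolet light on growing cells to fix a tagged protein to the RNA it touches, after which the protein is purified and the bound RNA fragments are sequenced. The list of subunits was chosen with earlier results of these data known. Its members were taken by gene symbol: RPN1 to RPN13 without RPN4, RPT1 to RPT6, PRE1 to PRE10, PUP1 to PUP3 and SCL1. These symbols were found on 32 of the 5090 transcripts counted, which is 0.629% of the table. All 32 transcripts had mapped ends. By their place in the particle they fell into 8 transcripts of the 19S lid, 10 of the 19S base, 7 of the 20S alpha ring and 7 of the 20S beta ring.

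There were 5 libraries, all from Saccharomyces cerevisiae in the BY4741 background. All cultures grew exponentially at 30°C in synthetic medium without tryptophan before cross-linking or heat shock. Ssd1–HTP, in which the chromosomal SSD1 gene carries a C-terminal HTP tag, a Kluyveromyces lactis 3′UTR and a selection cassette, was studied in clones 3 and 4. Each clone gave 1 library after 16 min of heat shock at 42°C and 1 library at 30°C, and 1 control library came from untagged BY4741 at 30°C. Heat-shocked cells had been filtered and moved to fresh warm medium before cross-linking, and cells at 30°C had not, so heat and handling cannot be told apart. The material of both temperatures of a clone was pooled during library preparation, after barcoding, so the clone number also marks a library preparation.

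The 26S proteasome degrades proteins that carry ubiquitin chains. Its 20S core is a barrel of alpha rings, which gate entry, around beta rings, which hold the proteolytic sites, and the 19S particle on its ends recognises, deubiquitinates, unfolds and feeds in the substrate. In yeast the subunit genes are activated together by the transcription factor Rpn4, and demand for the proteasome grows when heat unfolds proteins. Ssd1 is known as a repressor of translation that binds 5′UTRs, above all those of mRNAs for cell wall proteins.

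The libraries held 169549 counts (clone 3) and 413502 counts (clone 4) at 42°C, 176962 counts (clone 3) and 111824 counts (clone 4) at 30°C, and 3921 counts in the untagged control. Of the loci deleted in BY4741, URA3 and LEU2 had 0 counts in every library, although the tag construct carries a URA3 selection cassette, and MET15 had 1 count in all. The partly deleted HIS3 had 1 and 20 counts at 42°C, against 9 and 5 at 30°C. The MATa transcripts MFA1, MFA2 and STE2 were counted in each of the 4 Ssd1–HTP libraries, and the MATalpha transcripts STE3 and MF(ALPHA)1 had 12 and 7 counts at 42°C in clone 4. HSP104, SSA4, HSP42 and HSP26, taken as a check of the heat shock labels, were 4 of 4 higher at 42°C, with log2 fold changes between 5.14 and 6.56 (edgeR quasi-likelihood test, Benjamini-Hochberg adjusted p = 0.00194 each). SSD1 itself had 209 and 302 counts at 42°C, 95 and 81 counts at 30°C, with 2 in the control library. The abundance of the transcripts was not analysed here, so more cross-linking per transcript and more transcript cannot be told apart in any comparison below.

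Proteasome transcripts were counted in nearly every Ssd1–HTP library at moderate density. Of the 32 transcripts, 31 (clone 3) and 32 (clone 4) had counts at 42°C, and 31 (clone 3) and 28 (clone 4) had counts at 30°C. Counts in all 4 libraries were found for 2470 of the 5090 transcripts of the table and for 27 of the 32. The mean of 10 counts required for testing was reached by 2837 of the 5090 and by all 32 subunits. Their mean count ran between 14 for PRE9 and 109.75 for RPN5, with a median of 31.25, so that each value rests on few counts. In TPM, which divides counts by transcript length and allows levels of different transcripts to be compared, the median proteasome transcript stood at 155 and 144 at 42°C and at 108 and 120 at 30°C. The medians over all transcripts lay between 31.5 and 39.4 TPM in the same libraries. Averaged over the 4 libraries, all 32 proteasome transcripts lay above the median of 41.9 TPM for the whole table, between 47.1 TPM for RPN7 and 463 TPM for PUP1. Their best rank by mean TPM was 303 and their median rank 814.5 among the 5090 transcripts. Summed, the 32 held 0.662% and 0.533% of TPM at 42°C, against 0.400% and 0.477% at 30°C, and are 0.629% of the transcripts. Their mean TPM thus exceeded the mean of the whole table only at 42°C in clone 3.

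By mean TPM over the 4 Ssd1–HTP libraries the densest transcript was PUP1, which encodes the beta-ring subunit with trypsin-like activity. The lead differed between single libraries, with PUP1 (clone 3) and RPN5 (clone 4) densest at 42°C and PRE4 (clone 3) and PUP3 (clone 4) densest at 30°C. PUP1 (YOR157C; chromosome XV, 630914 to 631816, minus strand, sacCer3) had 779 and 365 TPM at 42°C, against 241 and 469 TPM at 30°C. RPN5, a scaffold subunit of the lid (YDL147W; chromosome IV, 190881 to 192407, plus strand), had 465 and 452 TPM at 42°C, against 285 and 199 TPM at 30°C. It took the largest share of proteasome counts in 3 of the 4 Ssd1–HTP libraries, 9.25% and 11.5% at 42°C and 8.94% at 30°C in clone 3, while PUP3 led with 8.50% at 30°C in clone 4. PUP3, a beta-ring subunit without an active site (YER094C; chromosome V, 348575 to 349436, minus strand), had 328 and 180 TPM at 42°C, against 39.4 and 529 TPM at 30°C. Next in mean TPM were PRE4 with 251, SCL1 with 242 and RPN12 with 219. The clones differed beyond counting error for PUP1 at 42°C and for PUP3 at 30°C, and did not for RPN5 at either temperature.

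**Figure D1:**
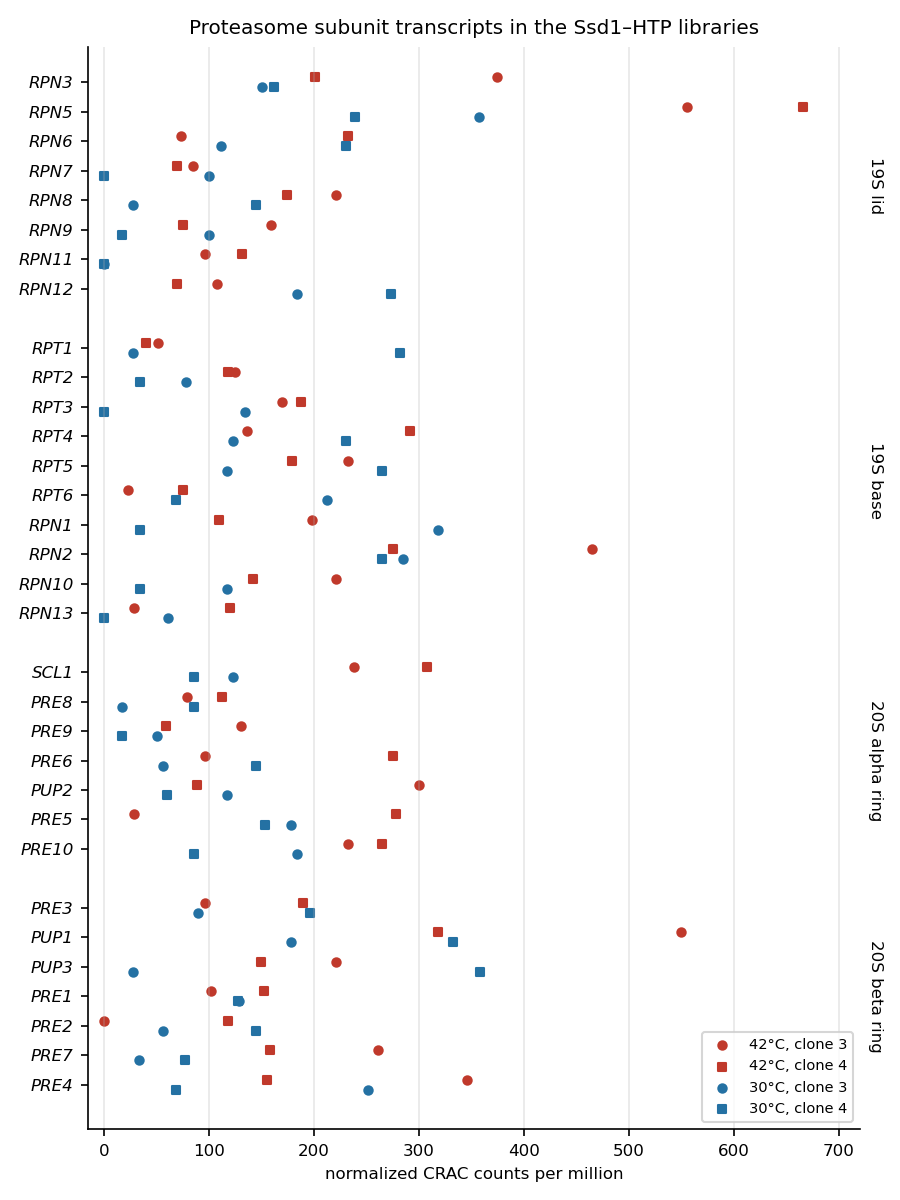
Normalized CPM (CRAC counts scaled to a common library size after TMM; x axis, linear) of the 32 proteasome transcripts (y axis, grouped by part of the particle) in the 4 Ssd1–HTP libraries, with 42°C in red, 30°C in blue, clone 3 as circles and clone 4 as squares. RPN5 had 555 and 666 at 42°C, while RPN11 was at 0 in both libraries at 30°C and most other transcripts show overlapping colours.

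The gene structures of the subunits were compact. The median transcript was 1024.5 nt long, against 1499 nt over all transcripts, with a range of 682 nt for RPN13 to 3185 nt for RPN1. The median 5′UTR, the region in which Ssd1 is known to bind, was 41 nt (range 4 to 93 nt), against 47 nt for the 4212 transcripts with mapped ends, and the middle 50% of each set spanned 29.75 to 61.25 nt and 26 to 87 nt. The 3′UTR had a median of 97.5 nt, against 121 nt. Of the 32 intervals, 21 overlapped no other interval and 11 overlapped a neighbour on the opposite strand by 4 to 137 nt. No source used here says whether strand was used in counting, so for those 11 (RPN9, RPN11, PRE4, SCL1, PUP2, RPN1, RPN10, RPN13, PRE8, RPT4 and RPN8) reads of the overlap could be counted on both transcripts.

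Summed over all 32 subunits, the proteasome took a larger share of Ssd1-bound counts at 42°C in both clones. The share was 0.625% (clone 3) and 0.523% (clone 4) at 42°C, against 0.405% (clone 3) and 0.442% (clone 4) at 30°C, and neither library at 42°C overlapped the range at 30°C. The means were 0.574% ± 0.0719 at 42°C and 0.423% ± 0.0263 at 30°C (SD, n = 2 each), a ratio of 1.36. The ratio was smaller without the 10 most counted transcripts in the denominator (0.722% at 42°C, 0.601% at 30°C). It was also smaller without subunits that overlap a neighbour (0.391% at 42°C, 0.320% at 30°C). Within a clone the ratio was 1.54 for clone 3 and 1.18 for clone 4. The exact Clopper-Pearson 95% intervals of the counts ran from 0.588% to 0.663% and from 0.501% to 0.545% at 42°C, and from 0.376% to 0.435% and from 0.404% to 0.482% at 30°C. These intervals cover counting error only, and the clones at 42°C stood farther apart than that. No test of the sum is given, because the list was chosen with results of these data known.

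The lid and the alpha ring had larger shares at 42°C in both clones without overlap. The alpha ring, which forms the gate of the core, had 0.115% and 0.125% of counts at 42°C, against 0.0735% and 0.0662% at 30°C, a ratio of 1.72 with 1.57 in clone 3 and 1.89 in clone 4. The lid, which carries the deubiquitinase, had 0.174% and 0.146% at 42°C, against 0.105% and 0.112% at 30°C, a ratio of 1.48 with 1.66 in clone 3 and 1.31 in clone 4. In clone 3, however, the beta ring differed more between temperatures than either of them. The base, which holds the ring of ATPases, had 0.172% and 0.139% at 42°C, against 0.149% and 0.127% at 30°C, so that its libraries interleaved and the ratio was 1.12. The beta ring had 0.164% and 0.112% at 42°C, against 0.0774% and 0.137% at 30°C, with a ratio of 2.12 in clone 3 and 0.820 in clone 4, so the clones went in opposite directions. Whether the parts differ from each other in their change was not tested. Taken as whole particles, the 19S transcripts had 0.346% and 0.285% at 42°C, against 0.254% and 0.239% at 30°C, and the 20S transcripts had 0.279% and 0.237% at 42°C, against 0.151% and 0.203% at 30°C. The 19S share of all proteasome counts was 55.3% and 54.6% at 42°C, against 62.7% and 54.0% at 30°C.

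**Figure D2:**
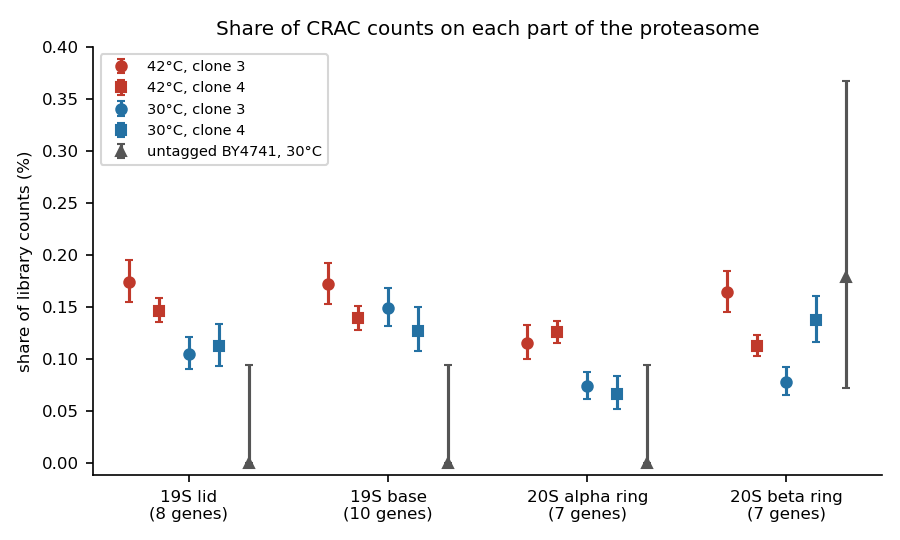
Share of all counts of a library (y axis, percent) that fell on the lid, base, alpha ring and beta ring, for 42°C (red) and 30°C (blue) with clone 3 as circles and clone 4 as squares, and for untagged BY4741 (grey triangles). Bars are exact Clopper-Pearson 95% intervals for counting error, and the alpha ring shows 0.115% and 0.125% at 42°C above 0.0735% and 0.0662% at 30°C.

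Transcript by transcript, no subunit passed the threshold for a difference between 42°C and 30°C. In the edgeR quasi-likelihood test over 2837 transcripts, 108 were higher (3.81%) and 98 lower (3.45%) at a Benjamini-Hochberg adjusted p under 0.05, and of the 32 subunits 0 were higher and 0 lower. At an unadjusted p under 0.05, 1 subunit was higher (RPN11) and 0 were lower, where 10.2% of all transcripts were higher and 10.2% lower. The lowest adjusted p of a subunit was 0.125. DESeq2 called 1 subunit higher, RPN11, where it called 153 higher and 165 lower over all transcripts. Without the 30°C library of clone 3, RPT3 stood at a log2 fold change of 8.33 in edgeR. That fit set it against 0 counts at 30°C and gives no bound. The fold changes leaned upwards without a call: 23 of 32 were above 0, against 53.2% of all transcripts, and their median log2 fold change was 0.82, against 0.13 over all transcripts with a middle 50% between −0.93 and 1.23. Both libraries at 42°C lay above both at 30°C for 11 of the 32, where 29.4% of all transcripts did so, and below both for 1 (RPN12), where 24.3% did so. Within both clones the value at 42°C was the higher for 18 of the 32, where this held for 36.2% of all transcripts, and the lower for 2 (RPN12 and PRE2), where it held for 29.0%. The share of subunits with no overlap upwards was thus close to the background.

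**Figure D3:**
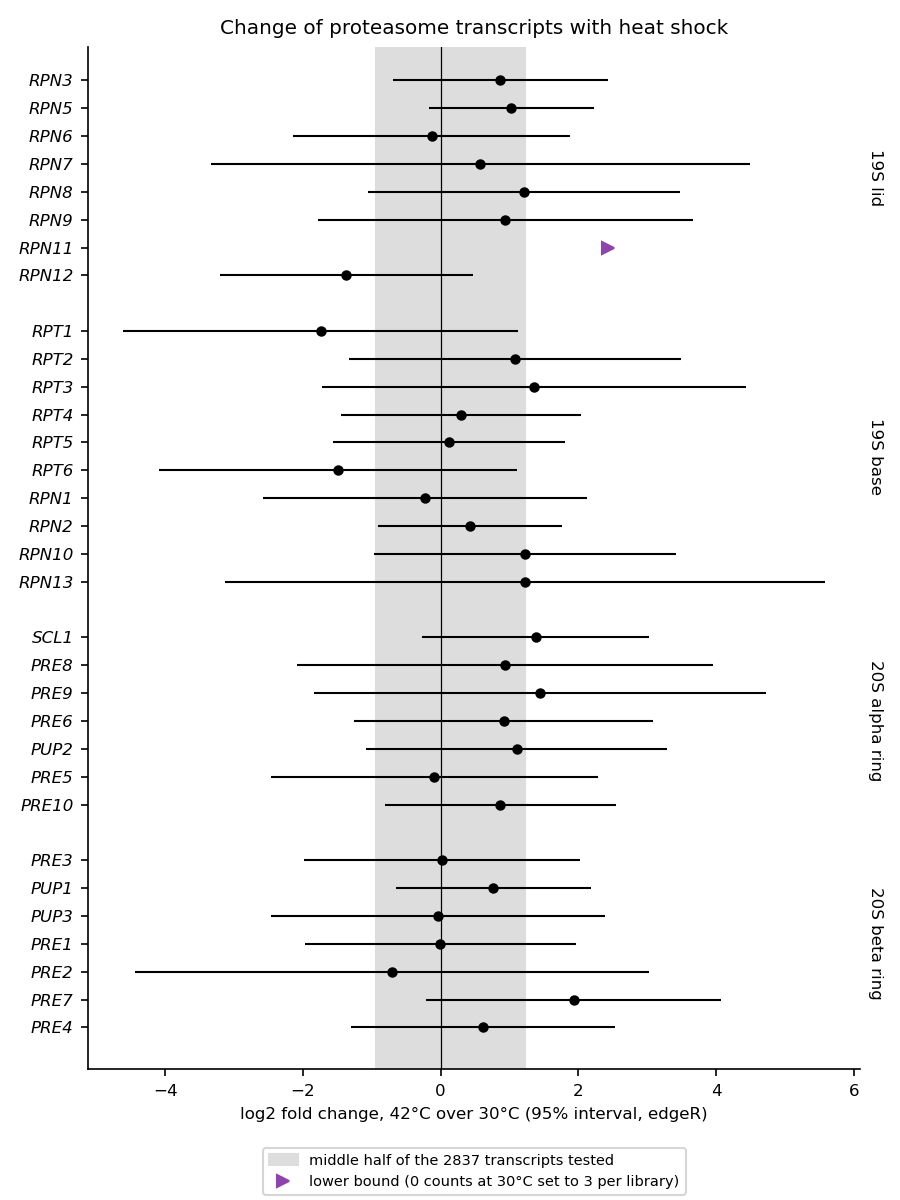
Log2 fold change of each proteasome transcript, 42°C over 30°C (x axis), from the edgeR quasi-likelihood fit with 95% intervals, grouped by part of the particle (y axis), beside the middle 50% of the 2837 transcripts tested (grey band, −0.93 to 1.23). The intervals of 31 subunits include 0, and RPN11, at 0 counts at 30°C, is drawn as a purple triangle at the log2 of 5.37-fold. This is its ratio with 3 counts put in place of each 0. The legend calls it a lower bound, which it is not.

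In the lid, 6 of 8 transcripts had a log2 fold change above 0, with a median of 0.91. RPN11 encodes the deubiquitinase that cuts ubiquitin chains from the substrate as it enters (YFR004W; chromosome VI, 153344 to 154412, plus strand). It had 17 and 49 counts at 42°C, against 0 and 0 counts at 30°C. With 3 counts put in place of 0 in each library at 30°C, mean normalized CPM of RPN11 was 5.37-fold higher at 42°C. This ratio allows for counting error at 30°C only, and libraries of the same temperature can differ by more, so it is not a lower bound. RPT3, for example, had 24 and 0 counts at 30°C. The lower confidence limit of the edgeR fit for RPN11 was 3.73-fold. That fit also rests on 0 counts in both libraries at 30°C, so this limit is no secure bound either. The adjusted p of RPN11 was 0.125 in the edgeR quasi-likelihood test. It was 0.0464 in DESeq2 and up to 0.491 in the other alternatives. Its interval overlaps that of SAD1 on the other strand by 90 nt, and SAD1 had 1 and 7 counts at 42°C, against 6 and 15 counts at 30°C. RPN5 had 555 and 666 normalized CPM at 42°C, against 357 and 239 at 30°C. Its libraries did not overlap, and its log2 fold change of 1.03 (SE 0.52) had an adjusted p of 0.330 in the edgeR quasi-likelihood test. RPN12, a lid subunit that joins late in assembly, went the other way (YFR052W; chromosome VI, 252499 to 253390, plus strand). It had 108 and 69.5 normalized CPM at 42°C, against 184 and 273 at 30°C, with a log2 fold change of −1.37 (SE 0.80) and an adjusted p of 0.425 in the same edgeR test. Of the scaffold subunits, RPN3 and RPN9 had log2 fold changes of 0.87 and 0.94, RPN6 of −0.13 and RPN7 of 0.58. RPN8, the partner of Rpn11, had 221 and 174 normalized CPM at 42°C, against 27.9 and 145 at 30°C, so that its libraries did not overlap either.

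In the base, 7 of 10 were above 0, with a median of 0.36. The lowest fold changes of all subunits were found here, in RPT1 and RPT6, which encode ATPases of the unfolding ring. RPT1 (YKL145W; chromosome XI, 174190 to 175679, plus strand) had 9 and 15 counts at 42°C, against 5 and 33 counts at 30°C, with a log2 fold change of −1.74 (SE 1.25). RPT6 (YGL048C; chromosome VII, 409973 to 411314, minus strand) had 4 and 28 counts at 42°C, against 38 and 8 counts at 30°C, with a log2 fold change of −1.49 (SE 1.13). In both the temperatures overlapped and the 30°C clones differed beyond counting error, and the edgeR adjusted p was 0.538 for RPT1 and 0.572 for RPT6. RPT3, another ATPase, had 30 and 70 counts at 42°C, against 24 and 0 counts at 30°C, and a log2 fold change of 1.36 (SE 1.34). Without the 30°C library of clone 3, only the 0 of clone 4 was left at 30°C and RPT3 was called (edgeR adjusted p = 0.0453), while with all 4 libraries its adjusted p was 0.687 and elsewhere it went up to 0.912. RPT2, with a log2 fold change of 1.08, was higher at 42°C in both clones without overlap, and RPT4 and RPT5 stood at 0.30 and 0.12. RPN1, which docks substrate shuttles, and RPN2, which holds Rpn13, had log2 fold changes of −0.23 and 0.42. RPN10 and RPN13, the ubiquitin receptors placed here with the base, had 1.22 and 1.23. RPN10 had 221 and 142 normalized CPM at 42°C, against 117 and 34.1 at 30°C. RPN13 rested on 5 and 45 counts at 42°C, against 11 and 0 counts at 30°C, and its libraries overlapped.

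In the alpha ring, 6 of 7 transcripts were above 0, each of these 6 in both clones, with a median of 0.94. SCL1 (YGL011C; chromosome VII, 474362 to 475272, minus strand) had 238 and 308 normalized CPM at 42°C, against 123 and 85.3 at 30°C. The libraries did not overlap, and the log2 fold change was 1.38 (SE 0.72) with an adjusted p of 0.344 in the edgeR quasi-likelihood test. PRE9, the alpha subunit that yeast can live without (YGR135W; chromosome VII, 761300 to 762247, plus strand), had 130 and 58.8 at 42°C, against 50.2 and 17.1 at 30°C on the same scale. Its log2 fold change of 1.44 (SE 1.43) rested on 23 and 22 counts at 42°C, against 9 and 2 at 30°C, with an edgeR adjusted p of 0.688. PRE10 also separated the temperatures, with 232 and 265 normalized CPM at 42°C, against 184 and 85.3 at 30°C. PRE8, PRE6 and PUP2 had log2 fold changes of 0.94, 0.92 and 1.10 with overlapping libraries. PRE5 was the exception at −0.09: it had 5 and 104 counts at 42°C, against 32 and 18 counts at 30°C, and was lowest at 42°C in clone 3.

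In the beta ring, 4 of 7 were above 0, with a median of 0.03, and the clones often went apart. PRE7 had the highest fold change of any subunit measured on both sides (YBL041W; chromosome II, 141212 to 142018, plus strand). It had 261 and 158 normalized CPM at 42°C, against 33.5 and 76.8 at 30°C. The libraries did not overlap, and the log2 fold change of 1.93 (SE 0.94) had an adjusted p of 0.304 in the edgeR quasi-likelihood test. The 3 subunits with active sites were PRE3 (caspase-like), PUP1 (trypsin-like) and PRE2 (chymotrypsin-like), with log2 fold changes of 0.03, 0.77 and −0.71. PUP1 had 550 and 318 normalized CPM at 42°C, against 178 and 333 at 30°C, so that clone 3 was higher at 42°C and clone 4 slightly lower (SE 0.62, edgeR adjusted p = 0.599). PRE2 had 0 and 44 counts at 42°C, against 10 and 17 counts at 30°C. PUP3 had 221 and 150 normalized CPM at 42°C, against 27.9 and 358 at 30°C. Its 30°C libraries lay on either side of those at 42°C, and the log2 fold change was −0.04 (SE 1.05, edgeR adjusted p = 0.994). PRE4 (YFR050C; chromosome VI, 248928 to 249919, minus strand) had 346 and 155 at 42°C, against 251 and 68.2 at 30°C. It was higher at 42°C in each clone, but clone 3 at 30°C exceeded clone 4 at 42°C, and the log2 fold change was 0.62 (SE 0.84, edgeR adjusted p = 0.798). PRE1, another beta-ring subunit without an active site, stood at −0.0038.

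For part of the subunits, libraries of the same temperature differed by more than counting error. The exact Poisson 95% intervals of the counts of clones 3 and 4 were scaled to library totals. They did not overlap for 15 of 32 subunits at 42°C and for 9 of 32 at 30°C, with 2 subunits in both groups. The same was not counted over all transcripts, so no background share can be set beside these counts. The deviations of the clones at 42°C and at 30°C correlated with a Pearson's r of 0.13 across the 32 subunits, which share their libraries and are not independent, and of −0.02 across all 2837 transcripts tested. A low subunit in a clone at one temperature was thus not as a rule low in that clone at the other.

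**Figure D4:**
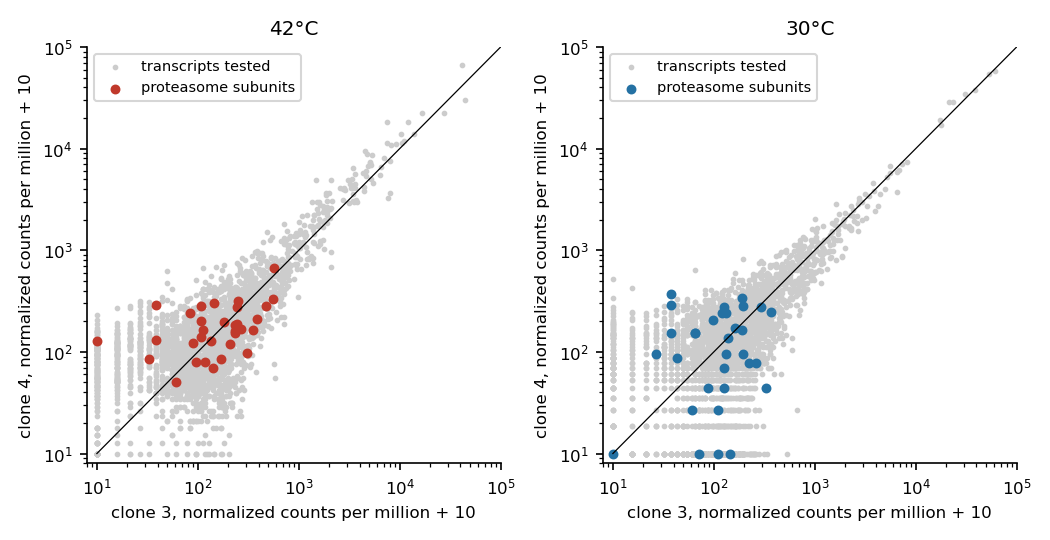
Normalized CPM plus 10 (log axes) in clone 3 (x) and clone 4 (y) at 42°C (left, subunits in red) and at 30°C (right, subunits in blue), with the transcripts tested in grey and the line of equal values. The intervals of the clones did not overlap for 15 of 32 subunits at 42°C and for 9 of 32 at 30°C, which was not counted over all transcripts.

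Against the untagged control, the depth did not allow binding of single subunits to be told from background. The control had 0 counts on 31 of the 32 subunits. With 3921 counts in all, a 0 allows up to 3 independent counts or 765 CPM (here scaled to library totals). Where counts come several to a transcript, the limit is higher. No subunit exceeded 765 CPM in any Ssd1–HTP library, the highest being RPN5 with 602 at 42°C in clone 4. The control was grown at 30°C, so tag and heat shock differ together between it and the libraries at 42°C. For 42°C against the control, edgeR's quasi-likelihood test over 3046 transcripts called 35 higher (1.15%) and 96 lower (3.15%), with 0 of 32 subunits higher and 0 lower. At an unadjusted p under 0.05, 1 subunit was higher (RPN5) and 1 lower (PRE4), where 4.20% of all transcripts were higher and 8.27% lower. With TMM in place of total counts, 200 transcripts were higher and 3 lower, RPN5 among the higher ones (edgeR adjusted p = 0.0329, against 0.362 with total counts and up to 0.504 in other alternatives). For 30°C against the control, over 2256 transcripts, 20 were higher (0.887%) and 55 lower (2.44%), with 0 of the 25 subunits tested higher and 0 lower by the same edgeR test. At an unadjusted p under 0.05, 0 subunits were higher and 1 was lower (PRE4), where 3.59% of all transcripts were higher and 8.55% lower. TMM gave 77 higher and 1 lower there, with 0 subunits among them.

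PRE4 was the only subunit counted in the control, with 7 counts or 1785 CPM. It had 360 and 140 CPM at 42°C and 254 and 71.5 at 30°C, all below the control. Its log2 fold change against the control was −2.85 (SE 1.08) at 42°C, with an edgeR adjusted p of 0.276, and −3.42 (SE 1.09) at 30°C, with an edgeR adjusted p of 0.152. With TMM the value at 42°C was 0.045, and without the 42°C library of clone 3 it was −3.66 with an adjusted p of 0.0267 in edgeR, which lay between 0.0267 and 0.971 over the alternatives. The control share of the whole list, 0.179% with an exact Clopper-Pearson interval of 0.0718% to 0.367%, consists of these 7 counts. The interval lies below each Ssd1–HTP share (0.405% to 0.625%), but it takes counts as independent. All 7 lie on PRE4, and the 3921 counts of the control fell on 560 transcripts. The interval can thus be too narrow, and it does not set the list apart from the control. Without the 11 subunits that overlap a neighbour, PRE4 among them, the shares were 0.391% at 42°C and 0.320% at 30°C, with 0% in the control library. For independent counts, 0 of 3921 allows up to 3 counts or 0.0765%. PRE4 alone held 7 counts, so this limit can be too low.

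Among other genes of the pathway, 3 transcripts were higher at 42°C in edgeR, and 4 others (RPN4, NPL4, HUL4 and BLM10) were called only under some alternatives. Of 21 genes for the regulator Rpn4, ubiquitin and the enzymes that attach, read or remove it, 19 were tested, 2 were higher at 42°C and 0 lower (3.81% and 3.45% of all transcripts tested), with a median log2 fold change of 1.26. UBI4, the polyubiquitin gene induced by stress, had 650 and 1164 counts at 42°C, against 16 and 20 counts at 30°C, with a log2 fold change of 4.73 (SE 0.51; edgeR adjusted p = 0.00284). UBC4, a ubiquitin-conjugating enzyme of the stress response, had 245 and 736 counts at 42°C, against 20 and 29 counts at 30°C, with a log2 fold change of 3.25 (SE 0.56; edgeR adjusted p = 0.0148). RPN4, the transcription factor of the subunit genes, had 160 and 351 counts at 42°C, 0 and 16 counts at 30°C, with 4 in the control library. Its fitted log2 fold change of 3.86 (SE 1.16) rests on an arm with a library at 0 and is 2.74 without that library (the 30°C library of clone 3) and 10.81, no bound, without that of clone 4. The edgeR adjusted p was 0.0922, which was 1.66e-05 with clone as a block and between 1.11e-06 and 0.448 over all alternatives. NPL4, a cofactor of the Cdc48 unfoldase, and HUL4, a ubiquitin ligase, had log2 fold changes of 3.81 (SE 1.08) and 4.65 (SE 1.28) with edgeR adjusted p-values of 0.0765 and 0.0715. Both were called by DESeq2 (0.0339 and 0.0413) and by edgeR without the filter on low counts (0.0215 and 0.0376), and their adjusted p went up to 0.742 and 0.774 without the 42°C library of clone 3. NPL4 had 67 and 51 counts at 42°C, against 2 and 3 counts at 30°C, and HUL4 had 48 and 39 counts at 42°C, against 1 and 1 at 30°C.

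Of 18 assembly chaperones and associated factors, a list that also held the lid subunit SEM1 (log2 fold change −0.04), 7 reached the count minimum. Of these, 1 was higher and 0 lower (3.81% and 3.45% of all transcripts tested), with a median log2 fold change of 1.92. TMA17, a chaperone of base assembly, had 184 and 239 counts at 42°C, against 20 and 5 counts at 30°C, with a log2 fold change of 3.39 (SE 0.67; edgeR adjusted p = 0.0222). The activator BLM10 had a log2 fold change of 1.92, and ECM29, which binds the assembled particle, had 2.70. The core maturation factor UMP1 had 0.51 and UBP6 had 0.46. HUL5 had 3.92 (SE 2.78), above TMA17, on 1 and 39 counts at 42°C, against 1 and 0 counts at 30°C. None of BLM10, ECM29, UMP1, UBP6 and HUL5 was called with all 4 libraries. Without the 30°C library of clone 3, BLM10 was at 4.90 and was called (edgeR adjusted p = 0.0433, with 0.189 to 0.864 in the other alternatives). Without the 30°C library of clone 4, edgeR called 0 transcripts of the table (327 were higher and 232 lower at an unadjusted p under 0.05). UBI4, UBC4 and TMA17 then had edgeR adjusted p-values of 0.0736, 0.0784 and 0.123. UBC4 and TMA17 were also not called without the 42°C library of clone 4 (0.0847 and 0.0761), nor TMA17 without that of clone 3 (0.0765), and all 3 were called in the other alternatives, with adjusted p as low as 3.36e-19, 5.85e-07 and 2.23e-05. Whether the pathway genes and the subunits differ in their change was not tested.

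**Figure D5:**
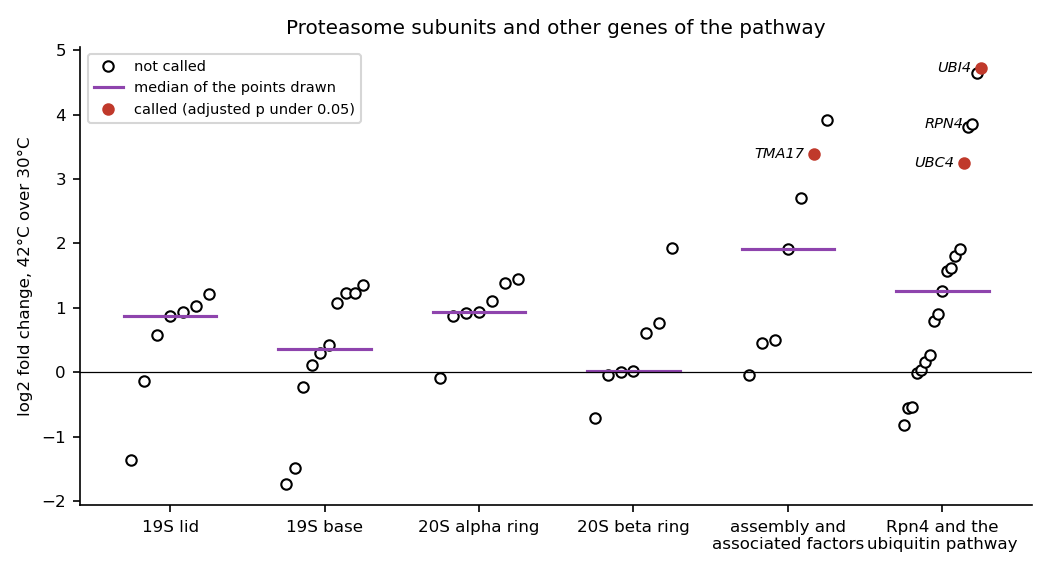
Log2 fold change, 42°C over 30°C (y axis), of the proteasome transcripts by part and of the 2 lists of pathway genes (x axis), one circle per transcript tested, with filled circles for edgeR adjusted p under 0.05 and purple lines at the median of the points drawn. RPN11, at 0 counts at 30°C, is left out, and the called genes TMA17, UBC4 and UBI4 lie at 3.39, 3.25 and 4.73, above all subunits drawn.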

How the data were processed

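The deposited values are counts, whole numbers per transcript and library without normalization. To make them, the authors removed adapters with flexbar, demultiplexed, collapsed PCR duplicates by insert and random barcode nucleotides, aligned with Novoalign (build sacCer3 in the submitters' processing notes) and counted on transcript intervals with multiBamCov. All 5090 loci were matched to symbols in the RefSeq gene table, which also gave the coding ends for UTR lengths.

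For heat shock against 30°C, edgeR 4.0.16 was run in R 4.3.3 (TMM on library totals, quasi-likelihood test, Benjamini-Hochberg adjustment over all transcripts with a mean of at least 10 counts, threshold 0.05). Comparisons with the control used all 5 libraries and total counts. Its single library gives no spread of its own. DESeq2 1.42.0, other normalizations and filters, the replicate block and leaving out each library were alternatives. Intervals came from scipy 1.17.1 (Python 3.11.15) and plots from matplotlib 3.10.9.

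Replicate numbers pair the samples, since both temperatures of a number share a clone and a library preparation. The clones' deviations correlated at −0.02 over 2837 transcripts. Subunits and gene lists were chosen with earlier results of these data known. Values are given in full for subunits called, the 6 with the highest mean TPM, and the 3 highest and 3 lowest fold changes. RPT3, PRE2, RPN8, RPN10, PRE10, PRE5 and RPN13 were added after their values were seen. Promoter motifs were not analysed here.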

Additional observations from a re-analysis of the deposited data

How the results depend on the processing

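Of 291 recomputed log2 fold changes of single subunits, 258 kept their direction and stayed uncalled, 31 changed sign and 2 became called, and 17 of the 32 subunits kept their sign in every alternative run. The count of subunits called at 42°C against 30°C was 1 with DESeq2 (RPN11) and between 0 and 1 on leaving out a library (RPT3), against the control at 42°C it was 1 higher with TMM (RPN5) and between 0 and 1 lower on leaving out a library (PRE4), and it was 0 under the other alternatives run. With the replicate block, 0 subunits were called and their median log2 fold change was 0.83; over all transcripts it called 150 higher and 144 lower, and of the subunits RPN1 (0.37) and PUP3 (0.68) alone changed sign. The median was between 0.45 and 0.74 on leaving out a library and 0.66 at a mean of at least 50 counts, which left 3 subunits, and at that minimum no subunit was left at 30°C against the control. Between 21 and 27 of the 32 were above 0 wherever all 32 were tested. Calls over all transcripts (108 higher, 98 lower) were 0 and 0 without the 30°C library of clone 4, 34 and 24 without the 42°C library of clone 4, 163 and 96 without the 30°C library of clone 3, 153 and 165 with DESeq2 and 174 and 143 without a filter. Against the control, TMM turned PRE4 at 42°C to 0.045 and gave 200 higher and 3 lower there, and 77 and 1 at 30°C, and leaving out a library gave 66 to 70 higher and 173 to 180 lower at 42°C (35 and 96 with all), and 13 to 19 higher and 36 to 43 lower at 30°C (20 and 55 with all). The share of counts was 0.722% at 42°C and 0.601% at 30°C without the 10 most counted transcripts in the denominator, and 0.391%, 0.320% and 0% (control) without overlapping subunits. Without the filter on low counts, RPN6 was at 0.030, PRE5 at 0.081, PUP3 at 0.089 and PRE1 at 0.14, and PRE3 was at −0.10 with total counts and −0.0037 with DESeq2.

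On leaving out each library, values that changed sign ranged as follows. RPN6 ran between −1.18 and 0.48, RPN7 between −0.38 and 7.12, RPT1 between −2.64 and 0.69, RPT4 between −0.35 and 0.81, RPT5 between −0.38 and 0.81, RPN1 between −1.06 and 2.14 and RPN13 between −0.15 and 7.07. PRE6 ran between −0.027 and 1.74, PUP2 between −0.012 and 1.75, PRE5 between −2.51 and 0.74, PRE3 between −0.53 and 0.69, PUP3 between −0.96 and 2.70, PRE1 between −0.31 and 0.25, PRE2 between −6.97 and 0.24 and PRE4 between −0.057 and 1.86. Values near 7 or −7 come from fits in which a remaining library or pair was at 0 counts and are not bounds. The cause of the changes was not tested.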
